A study of Ovis aries with 6 samples.

Results

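The zinc finger genes described here are those whose symbol begins with ZNF, ZFP, ZBTB or KLF followed by a digit. Of 11285 genes with a symbol in the table, 144 met this rule: 111 ZNF, 16 ZBTB and 10 KLF genes, 5 ZFP genes and the pair ZFP36 and ZFP36L1, which are set apart because they bind RNA. Each gene was represented by its transcript of highest mean level, in RPKM (reads scaled by transcript length and by the reads of the library). Of the 144, 68 averaged 1 RPKM or more across the 6 libraries, and these are the tested members. The symbol does not ensure the function: ZBTB8OS is named for its place opposite ZBTB8 and encodes no factor of that family, and ZNF622 takes part in ribosome maturation.

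RNA came from milk somatic cells, the mixture of mammary epithelial and immune cells that is shed into milk and was pelleted here from 250 ml. The 3 control libraries came from 3 Comisana ewes kept for 3 weeks on a ration of grass hay with a commercial concentrate. The 3 linseed libraries came from the same ewes after 3 weeks on grass, hay and a concentrate of which extruded linseed made up 20% of the dry matter. Milk was sampled at the start and the end of the trial, and all ewes had the diets in this order, so diet and time of sampling cannot be told apart. The labels give day 90 of lactation for all 6 libraries alike and do not say to which sampling it refers. Each group holds 1 library per ewe.

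Most proteins of these families carry fingers of the C2H2 type, short loops held by a zinc ion through cysteines and histidines, which read DNA bases in tandem. Many ZNF proteins join such fingers to a KRAB domain, which recruits the corepressor TRIM28. ZBTB proteins pair fingers with a BTB domain that forms dimers and binds corepressors, and KLF proteins bind GC-rich promoter elements with a trio of fingers. In the mammary gland and in leukocytes, members of the KLF family are known for roles in epithelial growth, monocyte differentiation and T cell quiescence. Factors of this kind are usually scarce as mRNA, so that depth bears on each value.

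The libraries held 4941935 to 22644050 reads as solved from the RPKM steps, the shallowest being linseed sheep 1. Milk protein genes took 8.27% to 59.4% of all RPKM in controls and 2.39% to 34.9% with linseed, lowest in sheep 3 under both diets. Of the marker lists, 11 matched genes of mammary epithelium took 6.42% to 49.0% of RPKM in controls and 1.54% to 32.4% with linseed, with none of the 11 at 0. Within sheep, 8 of these 11 were lower with linseed in all 3 and 0 higher, where 26.2% and 23% of all tested transcripts were. Their median log2 difference, linseed minus control, was -1.72. Sums over 9 macrophage genes ran from 107.6 to 1106 RPKM in controls and from 778.7 to 1878 with linseed. This sum rose in sheep 1 and 3 but fell in sheep 2, from 1106 to 987 RPKM. The 8 macrophage genes tested were mixed: 3 rose within every sheep, 2 fell within every sheep, and their median log2 difference was -0.14. Sums over 6 neutrophil genes ran from 421.8 to 1025 RPKM in controls and from 2357 to 3188 with linseed. The 9 T and NK cell genes summed to 8.68 to 648.4 and 67.1 to 157.6, the 7 B cell genes to 1.27 to 25.8 and 7.38 to 28.6, and 6 stromal genes to 5.00 to 33.5 and 5.01 to 84.1, with COL3A1 and DCN at 0 throughout. In bulk RNA, fewer cells of a type and less RNA per cell cannot be told apart, and the part of cell composition in the results below was not tested.

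Zinc finger genes went both ways with linseed. No member passed limma without a block, against 0% of 15891 tested transcripts called higher and 0% called lower, and the smallest adjusted p of a member was 0.263. At an unadjusted p under 0.05, 6 members were higher and 8 lower, against 8.5% and 7% of all tested transcripts. When sheep was added as a block, limma called 2 of 68 members higher (ZNF358 and ZNF385A) and 1 lower (ZNF326), where it called 1.28% of all transcripts higher and 1.34% lower. All 3 lay close to the threshold, and none passed the blocked fit after a length correction. Their differences stayed large there: on the log2 scale ZNF358 had 2.26 ± 0.47 (SE), ZNF385A 1.76 ± 0.47 and ZNF326 -2.10 ± 0.48, at adjusted p of 0.0972, 0.104 and 0.0994.

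By direction alone, 16 members were higher in all 3 sheep (23.5%, against 23% of all tested transcripts) and 23 were lower in all 3 (33.8%, against 26.2%). Every linseed library lay above every control library in 14 members (20.6%, against 13.3%), and below in 6 (8.82%, against 7.83%). All 14 of the former were ZNF genes. The latter were 3 ZNF genes, ZNF326, ZNF146 and ZNF79, with KLF5, ZBTB41 and ZBTB10. Without control sheep 3 the counts were 19 (27.9%, against 24.5%) and 6 (8.82%, against 9.98%). Without both libraries of sheep 3 they were 21 (30.9%, against 31.1%) and 23 (33.8%, against 29.9%).

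Transcript length went with the difference between diets in the whole table, so each member was set beside the 500 other tested transcripts nearest to it in length. The median log2 difference, linseed minus control on log2(RPKM + 1), was -0.43 over the 68 members, -0.12 over all tested transcripts and -0.26 for transcripts of like length. Members had a median length of 2847.5 nt and all tested transcripts one of 2297 nt. Spearman's rho between difference and length was -0.39 over the 68 members and -0.32 over 15813 other transcripts, both across genes that share the same 6 libraries. Of the members, 29 lay above and 39 below the median of their like-length transcripts.

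The 22 longest members (3984 to 10595 nt) had a median log2 difference of -0.94, with 19 below 0, and the 3365 other transcripts of that range one of -0.49, with 73.1% below 0. The 23 shortest (632 to 2337 nt) had a median of 0.09 and 7285 others one of 0.20. Between them, 23 members of 2411 to 3922 nt had a median of 0.04, above the -0.27 of 3780 others. The long members were thus lower than their length class and those of middle length higher. These medians are descriptions, without a test of the set.

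**Figure D1:**
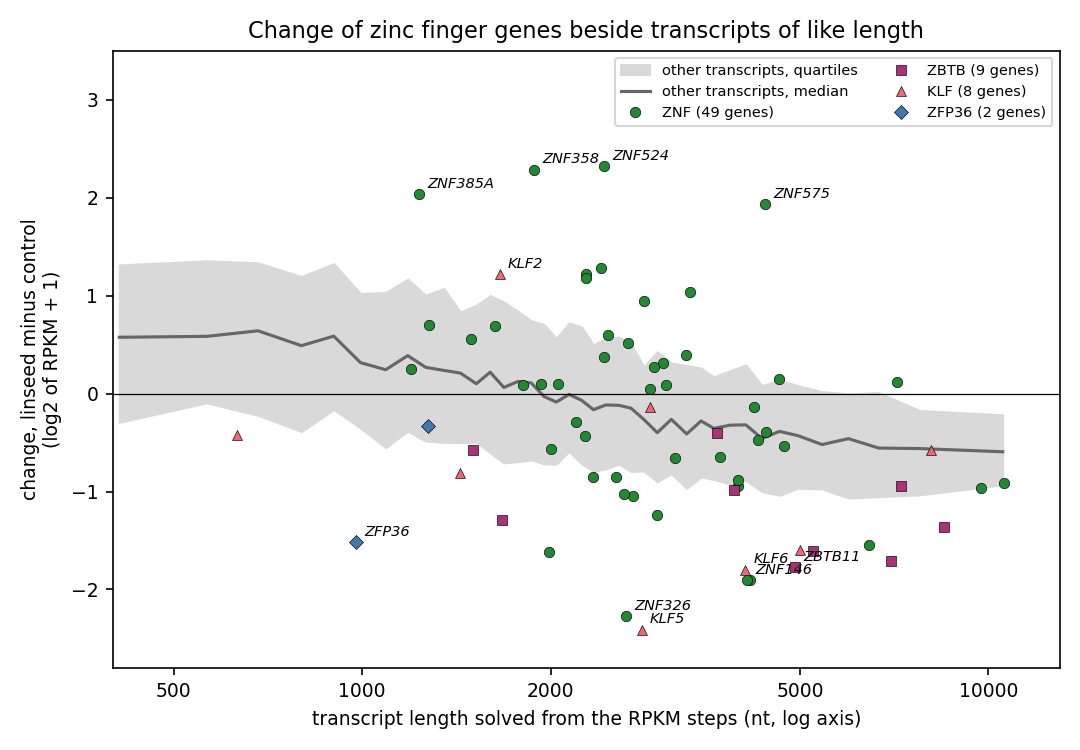
Log2 difference (linseed minus control, log2 of RPKM + 1; vertical axis) against transcript length in nt (log axis) for the 68 tested zinc finger genes, with the median and quartiles of 15813 other tested transcripts in 40 length classes as a grey line and band. ZNF genes lie on both sides of the grey line, while the 9 ZBTB genes and 6 of 8 KLF genes lie below the median of their like-length transcripts.

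The families differed in their medians. The 49 tested ZNF genes had a median log2 difference of 0.08, with 26 above 0 and 23 below, but the sign of this median turned when milk proteins were dropped from the total (-0.44), without the filter on low values (-0.05), and without control sheep 1, control sheep 2 or linseed sheep 3 (-0.13, -0.13 and -0.36). The 9 ZBTB genes, ZBTB8OS among them, had a median of -1.29 with 9 of 9 below 0, and the 8 KLF genes one of -0.70 with 7 of 8 below 0. Without the filter on low values these medians were -0.71 and -0.50. ZBTB10, ZBTB11, ZBTB24, ZBTB38, ZBTB41 and ZBTB44 had linseed means of 0.23 to 0.95 RPKM, and KLF5 one of 0.74. They reached the minimum of 1 RPKM through the controls alone, so the filter partly fixed their sign. Of all 15891 tested transcripts, 8636 were below 0, and of other transcripts of 3984 to 10595 nt, 73.1% were. That range holds only part of either family, since KLF13 has 632 nt and ZBTB8OS 1501 nt. KLF genes had a median length of 2840 nt and ZBTB genes one of 4919 nt. Their like-length transcripts had medians of -0.25 and -0.43. ZFP36 and ZFP36L1 were both below 0. Medians of the KLF and ZBTB families were negative under each scaling and each left-out library, though that of the KLF family was -0.10 without both libraries of sheep 3. With milk proteins dropped, the median of all tested transcripts was itself -0.57 in place of -0.12, and with quantile normalization it was -0.01, so values under these scalings are to be read against those shifts.

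Among ZNF genes with higher values, ZNF358 (XM_015095846.1, 1884 nt), a C2H2 gene, had the smallest p. It had 3.66, 4.22 and 3.45 RPKM in control sheep 1, 2 and 3 and 26.3, 30.7 and 13.5 RPKM with linseed, on 1394 reads in all. The groups were far apart, and the controls lay within 1 RPKM of one another. Its log2 difference was 2.29 ± 0.58 (SE), against a median of 0.03 for transcripts of like length. Its limma adjusted p was 0.263, and 0.0441 with the block (SE 0.52).

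ZNF385A, a zinc finger protein known as a partner of p53, also rose in the blocked fit. Its levels were 1.26, 3.78 and 4.90 RPKM in control sheep 1 to 3 and 6.73, 16.4 and 31.6 RPKM with linseed. Sheep 1 was lowest and sheep 3 highest under both diets, so the spread within a group was wide while the 3 within-sheep log2 differences were close, at 1.78, 1.87 and 2.47. On the log2 scale the difference was 2.04 ± 0.70 (SE), or ± 0.51 with the block, and the limma adjusted p was 0.264 without the block and 0.0499 with it.

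ZNF524 and ZNF575 had differences of like size but passed neither fit. ZNF524 had 2.09, 3.51 and 6.17 RPKM in controls and 40.6, 21.5 and 12.3 RPKM with linseed, in the order of sheep 1 to 3, a log2 difference of 2.32 ± 0.65 (SE; limma adjusted p = 0.263, or 0.0531 with the block). The order of the sheep was opposite in the 2 groups, so that the log2 difference was 3.75 in sheep 1 and 0.90 in sheep 3. ZNF575 was scarce in controls, at 0.35, 0.34 and 0.75 RPKM, and had 8.33, 4.11 and 2.69 RPKM with linseed (1.93 ± 0.55 SE; adjusted p = 0.263, or 0.0532 with the block). ZNF575 has 4396 nt, a length at which other transcripts had a median of -0.46.

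ZNF18 and ZNF775 were likewise low in controls and apart from them with linseed. ZNF18, whose protein joins C2H2 fingers to a SCAN dimerization domain, had 0.58, 0.65 and 0.745 RPKM in controls and 3.73, 2.35 and 2.36 RPKM with linseed. ZNF775 had 0.62, 0.38 and 0.47 RPKM in controls and 1.76, 3.40 and 2.90 RPKM with linseed. Both rest on few reads, 242 and 263 over the 6 libraries. The log2 differences were 1.18 ± 0.49 and 1.28 ± 0.48 (SE), with adjusted p in limma of 0.294 and 0.277. A second tested transcript of ZNF18 overlapped between groups, with 0.54, 1.43 and 0.84 RPKM in controls and 0.99, 2.38 and 1.39 RPKM with linseed. Its log2 difference was 0.41 ± 0.49.

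ZNF394, ZNF408 and ZNF768 were more abundant in controls than ZNF18 and ZNF775. ZNF394, which has been described as a repressor in MAP kinase signalling, had 2.60, 4.84 and 8.45 RPKM in controls and 13.2, 11.5 and 13.3 RPKM with linseed (log2 difference 1.23 ± 0.60 SE; limma adjusted p = 0.343). In ZNF408 the control mean was 4.58 ± 1.93 RPKM and the linseed mean 10.0 ± 1.21 (SD, n = 3), which is 1.04 ± 0.57 (SE) on the log2 scale. ZNF768 had 5.77 ± 1.12 and 12.3 ± 3.98 RPKM, or 0.94 ± 0.57 on the log2 scale. In each of these the groups did not overlap, and the lowest linseed value was near the highest control value in ZNF768, at 8.05 and 6.61 RPKM.

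**Figure D2:**
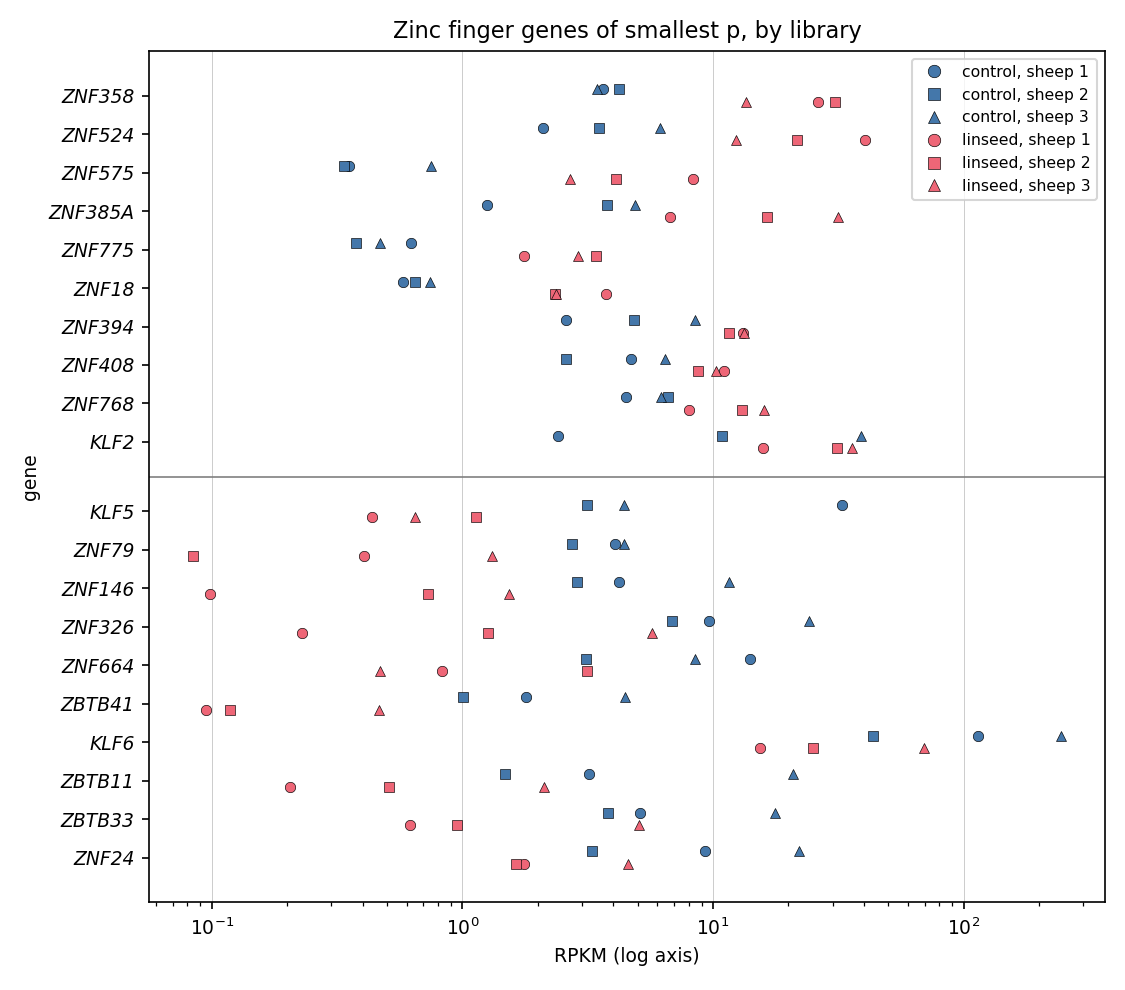
RPKM (log axis) in each library of the 10 zinc finger genes of smallest p with higher values (above the line) and the 10 with lower values (below the line), with controls in blue, linseed in red and a marker shape for each sheep. In ZNF358 the controls sit between 3.45 and 4.22 RPKM and the linseed libraries between 13.5 and 30.7, while KLF2 overlaps between groups.

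Among ZNF genes with lower values, ZNF326 fell in the blocked fit. Its protein belongs to the DBIRD complex, which links RNA polymerase II elongation with splicing. ZNF326 (XM_015092093.1, 2640 nt) had 9.60, 6.84 and 24.2 RPKM in control sheep 1 to 3 and 0.23, 1.27 and 5.69 RPKM with linseed. The highest linseed value, in sheep 3, was below the lowest control value, and the value of linseed sheep 1 stood for 3 reads. The log2 difference was -2.27 ± 0.75 (SE; limma adjusted p = 0.263), or ± 0.51 with the block (adjusted p = 0.0441), and like-length transcripts had a median of -0.15.

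ZNF146 and ZNF79 showed the same pattern with fewer reads. ZNF146, which encodes a protein made almost wholly of fingers, had 4.23, 2.87 and 11.6 RPKM in controls and 0.098, 0.73 and 1.54 RPKM with linseed, a log2 difference of -1.91 ± 0.63 (SE; limma adjusted p = 0.263, or 0.0531 with the block). ZNF79 had 4.06, 2.74 and 4.41 RPKM in controls and 0.41, 0.084 and 1.31 RPKM with linseed (-1.62 ± 0.53). The lowest linseed values stood for 2 reads of ZNF146 in sheep 1 and 1 read of ZNF79 in sheep 2.

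ZNF664 and ZNF24 were lower in the means but not apart. ZNF664 had 14.0, 3.11 and 8.45 RPKM in controls and 0.83, 3.13 and 0.47 RPKM with linseed, so that sheep 2 had nearly equal values (log2 difference -1.90 ± 0.68 SE; limma adjusted p = 0.266). ZNF24, a factor with a SCAN domain, had 9.29, 3.28 and 22.0 RPKM in controls and 1.76, 1.64 and 4.58 RPKM with linseed (-1.55 ± 0.71; adjusted p = 0.328). At 6443 nt its like-length transcripts had a median of -0.50. The other 30 tested ZNF genes, leaving aside the 19 given by name here, had log2 differences from -1.24 to 0.70, of which 18 were smaller than their standard error.

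In the KLF family, KLF6 was the most abundant member. KLF6, a widely expressed factor that responds quickly to stimulation, had 113.9, 43.4 and 245.1 RPKM in control sheep 1 to 3 and 15.4, 24.971 and 69.2 RPKM with linseed. It was lower in all 3 sheep, by 2.81, 0.77 and 1.81 on the log2 scale, but the linseed value of sheep 3 lay above the control value of sheep 2. KLF6 had a log2 difference of -1.80 ± 0.79 (SE), with an adjusted p in limma of 0.311, and of 0.088 with the block. The value rests on 29318 reads, the most of any member.

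KLF5, a factor of epithelial proliferation, had 32.8, 3.13 and 4.42 RPKM in controls and 0.43, 1.14 and 0.65 RPKM with linseed. Control sheep 1 was far above the rest, and the groups did not overlap. The log2 difference was -2.41 ± 0.78 (SE; limma adjusted p = 0.263, or 0.0543 with the block), and its size without one library at a time ranged from -2.98 to -1.46. The value of linseed sheep 1, the lowest, stood for 6 reads. Mammary epithelium markers took 49.0%, 32.9% and 6.42% of RPKM in control sheep 1 to 3 and 32.4%, 25.8% and 1.54% with linseed. This share was set mostly by abundant milk protein genes. Whether KLF5 follows epithelial content was not tested. By mean level KLF5 ranked 8 of the 68 members in controls and 60 with linseed.

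KLF3, a repressor that acts through CtBP, had 7.81, 1.57 and 15.5 RPKM in controls and 0.61, 0.67 and 4.03 RPKM with linseed, lower in all 3 sheep (log2 difference -1.60 ± 0.78 SE; limma adjusted p = 0.343). KLF4, a factor of epithelial barriers and of monocyte differentiation, had 10.7, 6.73 and 13.4 RPKM in controls and 6.77, 10.1 and 1.75 RPKM with linseed, higher in sheep 2 alone (-0.81 ± 0.67). KLF9, which responds to steroid and thyroid hormones, had 2.56, 0.84 and 3.20 against 0.85, 1.80 and 0.60 RPKM (-0.58 ± 0.54). Other transcripts of the length of KLF9, 8099 nt, had a median of -0.56, about the same.

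KLF2, the factor that keeps T cells quiescent and answers to flow in endothelium, was the only KLF gene with a higher mean log2 level. It had 2.40, 10.8 and 38.9 RPKM in control sheep 1 to 3 and 15.9, 31.3 and 35.8 RPKM with linseed. The controls spread more widely than the linseed libraries, and sheep 3 had the highest value in each group. KLF2 had a log2 difference of 1.22 ± 0.85 (SE; limma adjusted p = 0.481), from 2.31 in sheep 1 to -0.11 in sheep 3. T and NK cell markers summed to 8.68, 165.9 and 648.4 RPKM in controls and 96.4, 67.1 and 157.6 RPKM with linseed, in the order of sheep 1 to 3. Whether KLF2 follows T cell content was not tested.

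KLF13, a regulator of chemokine expression in T cells, had 2.31, 0.72 and 23.9 RPKM in controls and 1.60, 3.97 and 3.58 RPKM with linseed. A single library, control sheep 3, set its sign: the log2 difference was -0.42 ± 0.89 (SE) with it and 0.71 without it. KLF1, the erythroid factor, had 2.19, 2.79 and 8.95 RPKM in controls and 3.23, 3.48 and 3.76 RPKM with linseed, a log2 difference of -0.14 ± 0.61. Its sign also turned without control sheep 3 (0.37), with quantile normalization (0.04) and with the length correction (0.08). Of the erythrocyte markers 2 were matched, ALAS2 at 0 in every library and both together at most 0.40 RPKM.

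**Figure D3:**
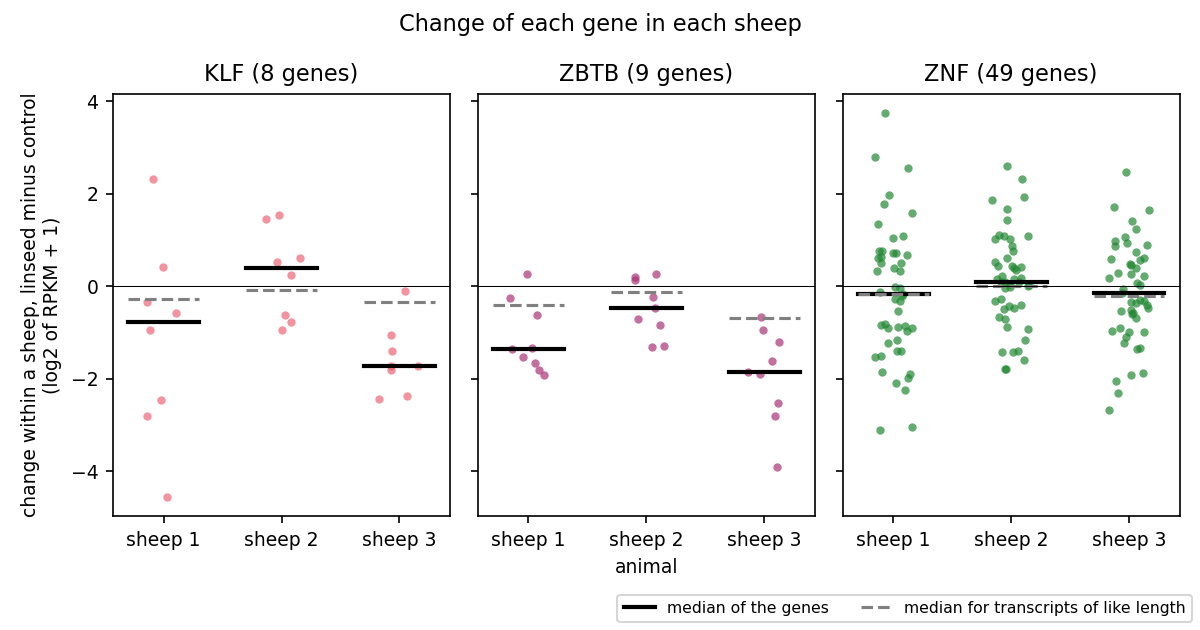
Log2 difference within each sheep (linseed minus control, log2 of RPKM + 1) for the tested KLF, ZBTB and ZNF genes, 1 point per gene, with the median of the genes as a black bar and that of like-length transcripts as a dashed grey bar. The KLF median is -0.76, 0.38 and -1.72 and the ZBTB median -1.35, -0.48 and -1.85 in sheep 1, 2 and 3.

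ZFP36, or tristetraprolin, and ZFP36L1 carry fingers of the CCCH type, bind AU-rich elements in mRNA and recruit the deadenylase that starts decay. ZFP36 was the most abundant of all members in both groups. It had 198.2, 71.2 and 477.6 RPKM in control sheep 1 to 3 and 40.8, 54.2 and 126.6 RPKM with linseed, lower in all 3 sheep by 2.25, 0.39 and 1.91 on the log2 scale. The groups overlapped, since linseed sheep 3 lay above control sheep 2. The log2 difference was -1.52 ± 0.78 (SE; limma adjusted p = 0.365), whereas transcripts as short as ZFP36 (978 nt) had a median of 0.40.

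ZFP36L1 did not follow ZFP36. It had 32.6, 17.3 and 74.0 RPKM in controls and 35.6, 44.5 and 13.0 RPKM with linseed, so that the sheep differed in sign. Its log2 difference was -0.33 ± 0.72 (SE), and its sign turned without control sheep 3 (0.20) or linseed sheep 3 (0.19).

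Linseed values were below the control in every sheep for 5 of the 9 tested ZBTB genes and above it for 0, against 26.2% and 23% of all tested transcripts. ZBTB genes are mostly long, and of other transcripts of 3984 to 10595 nt, 41.5% were lower and 9.12% higher in all sheep. That range leaves out ZBTB8OS, ZBTB18, ZBTB24 and ZBTB44, which are shorter. ZBTB33, or Kaiso, which binds methylated DNA, had 5.10, 3.8034 and 17.7 RPKM in control sheep 1 to 3 and 0.62, 0.95497 and 5.08 RPKM with linseed (log2 difference -1.61 ± 0.74 SE; limma adjusted p = 0.324, or 0.0702 with the block). ZBTB11, known for a role in neutrophil development, had 3.21, 1.48 and 20.8 RPKM in controls and 0.21, 0.51 and 2.12 RPKM with linseed (-1.77 ± 0.80; adjusted p = 0.319). Both had their highest value in control sheep 3, and without it their log2 differences were -1.01 and -0.86. ZBTB41, a gene of 8500 nt, had 1.80, 1.00 and 4.47 RPKM in controls and 0.095, 0.12 and 0.47 RPKM with linseed (-1.36 ± 0.51; adjusted p = 0.277), on 4 reads in linseed sheep 1 and 6 in linseed sheep 2.

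The other 6 ZBTB rows (ZBTB8OS, ZBTB10, ZBTB18, ZBTB24, ZBTB38 and ZBTB44) had log2 differences from -1.71 to -0.40 and mean levels of 1.30 to 4.95 RPKM. ZBTB44 was at 0 in linseed sheep 1, where a count of 0 allows up to 0.36 RPKM (3 reads). ZBTB genes were long, with a median of 4919 nt, and like-length transcripts had a median of -0.43 against their -1.29. All 9 lay below the median of their own like-length transcripts.

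Of the remaining abundant members, ZNF622, which helps mature the large ribosomal subunit, had 31.7, 22.4 and 29.8 RPKM in controls and 54.7, 46.5 and 36.3 RPKM with linseed. It was higher in all 3 sheep with groups apart, by a log2 difference of 0.69 ± 0.57 (SE; limma adjusted p = 0.55), against 0.15 for its length. ZNF706 had 19.8, 27.0 and 25.8 RPKM in controls and 6.93, 9.42 and 31.1 RPKM with linseed, below its control in sheep 1 and 2 but not in sheep 3 (-0.85 ± 0.67). By mean level the order in controls was ZFP36, KLF6, ZFP36L1, ZNF622, ZNF706 and KLF2, and with linseed ZFP36, ZNF622, KLF6, ZFP36L1 and KLF2. Each pair of neighbours in these orders differed by less than the larger of its SDs over sheep.

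ZFP36 and KLF6 together made up 50.4%, 32.2% and 54.2% of the summed RPKM of the tested members in control sheep 1 to 3, and 15.4%, 17.9% and 32.8% with linseed. That sum was 619.7, 355.4 and 1333 RPKM in controls and 364.2, 441.8 and 596.5 RPKM with linseed. Control sheep 3 held the highest value of 39 of the 68 members (57.4%), while it held the highest of 41.0% of all tested transcripts. By family it was the highest library for 7 of 8 KLF, 8 of 9 ZBTB and 22 of 49 ZNF genes and for ZFP36 and ZFP36L1. This library also had the smallest share of milk protein RPKM among controls, 8.27%, and the largest sum of T and NK cell markers. Without it the median log2 difference was -0.09 over the 68 members and 0.19 over all tested transcripts. Values of single genes without it are given above for KLF1, KLF13, ZFP36L1, ZBTB11 and ZBTB33 only.

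**Figure D4:**
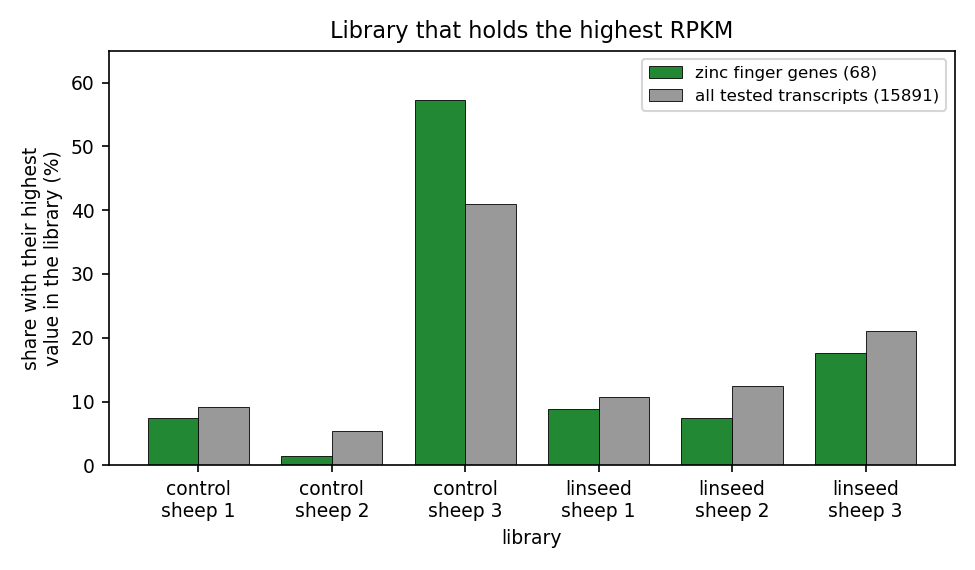
Share (%) of the 68 tested zinc finger genes (green) and of all 15891 tested transcripts (grey) whose highest RPKM falls in each of the 6 libraries. Control sheep 3 holds the highest value of 57.4% of the zinc finger genes and of 41.0% of all tested transcripts.

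The minimum of 1 RPKM left out 76 members, with a median of 0.30 RPKM: 62 ZNF, 7 ZBTB, all 5 ZFP genes, KLF11 and KLF14. The members just above the minimum were ZNF41, ZNF584 and ZNF750. ZNF750, a factor of epidermal differentiation, had 3.71, 0.82 and 0.51 RPKM in controls and 0.65, 1.03 and 0 RPKM with linseed, where a count of 0 allows up to 0.0404 RPKM (3 reads). ZNF584 had 0.73 ± 0.40 and 1.5023 ± 0.23 RPKM (SD, n = 3), and ZNF41 0.97 ± 0.65 and 1.13 ± 0.42. Those just below were ZNF333 (1.48 ± 2.10 and 0.46 ± 0.16), ZNF527 (1.4958 ± 1.65 and 0.42 ± 0.09) and ZNF827 (0.96 ± 1.19 and 0.92 ± 0.32). In all 3 of these, control sheep 3 had the highest value. Of the 76, 2 were at 0 in every library.

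Each of the 7 lists of related genes had a median log2 difference below 0, from -1.25 for mRNA deadenylation and decay to -0.45 for immediate early genes. In limma without the block, 0 genes of any list passed in either direction. Relative to transcripts of like length, these list medians were smaller in size, from -0.76 for mRNA deadenylation and decay to -0.29 for immediate early genes. The counts by direction below stand beside 26.2% of all tested transcripts lower and 23% higher in all sheep. Among corepressors of KRAB zinc fingers, 7 of 11 tested were lower in all 3 sheep and 0 higher, with RBBP4 (-3.35 ± 0.81 SE), a histone chaperone, called lower with the block, and CBX3 (-2.17 ± 0.81), a heterochromatin protein, next. Of 7 corepressors and partners of ZBTB proteins, 3 were lower in all sheep and 0 higher. TBL1XR1, of the NCOR complex, had -1.52 ± 0.82, the ubiquitin ligase scaffold CUL3 -1.49 ± 0.82 and the demethylase gene KDM1A -0.93 ± 0.61.

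Of 13 tested genes of mRNA deadenylation and decay, 10 were lower in all 3 sheep and 1 higher. BTG1, an activator of the deadenylase, had a log2 difference of -3.13 ± 0.97 (SE) and was called lower with the block. The deadenylase subunit gene CNOT7 had -1.41 ± 0.66 and TOB2 -1.54 ± 0.73. Among 11 AU-rich mRNAs, 5 were lower in all sheep and 0 higher, with CXCL8 called lower with the block. TNF (1.53 ± 0.95 SE), IL10, IER3 and IL1B had log2 differences above 0 and the others below. The AU-rich list had a median of 0.28, -0.64 and -0.90 in sheep 1, 2 and 3. Immediate early genes were lower in all sheep in 3 of 12, near the share of all tested transcripts, and higher in 0. The list had a median of 0.33, 0.82 and -1.21 in sheep 1, 2 and 3.

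Factors with C2H2 fingers under other names were also set beside the members. Of 14 tested, 7 were lower in all 3 sheep and 1 higher, with a median of -0.80. IKZF5, of the Ikaros family, had -1.32 ± 0.47 (SE), the BTB gene MYNN -1.51 ± 0.63 and ZHX1 -1.08 ± 0.45. Other zinc finger classes had 8 tested genes, 3 lower in all sheep and 0 higher, led by ZC3H15 (-2.36 ± 0.77). With the block, limma called 3 genes of these 7 lists lower (RBBP4, BTG1 and CXCL8) and 0 higher, where it called 1.34% of all transcripts lower and 1.28% higher. None of the 3 was called in the blocked fit after the length correction, while they lay below the median of like-length transcripts by log2 differences of -3.28, -3.36 and -2.78.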

How the data were processed

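The authors deposited 1 table of RPKM values for 49705 RefSeq transcripts in 6 libraries. Per the submitters' processing notes, Trimmomatic 0.33 was used. Aligner, counting tool and genome build: not given in the sources used here, so their effect on the values was not tested. Symbols came from a RefSeq table of assembly ARS-UI_Ramb_v3.0, used for names alone: 15836 transcripts (31.9%) matched without their version. RPKM steps gave library totals, lengths and reads within 0.002 reads, and 99.43% to 99.82% of reads were recovered. A solved length is too short where all counts share a factor.

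Values were compared as log2(RPKM + 1), which understates differences of low genes, with limma 3.58.1 in R 4.3.3 (mean-variance trend, Benjamini-Hochberg over 15891 transcripts, adjusted p under 0.05), without a block. The same animal identifier stands under the same number in both groups, so the sheep pair the libraries. Deviations from the group mean correlated at 0.18, 0.25 and 0.40 within sheep 1, 2 and 3. Between unlike sheep they correlated at -0.40 to 0.24, highest for control sheep 1 with linseed sheep 2. These values thus do not tell sheep 1 from sheep 2, and the pairing rests on the identifiers. Diet is read from the letter in the sample titles. Of the fits, only the one without the block was tested on simulated data, which held no sheep effect. Members and lists were chosen with earlier results of these data known. Genes were named by smallest p (10 in each direction), abundance (10), family (KLF and ZFP36), distance from like-length transcripts (5 in each direction) and nearness to 1 RPKM (3 on each side), and related genes by smallest p (3 a list). Reads shared with paralogs depend on the authors' counting. Floors cover counting error only. No sequence was used here.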

Additional observations from a re-analysis of the deposited data

How the results depend on the processing

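Counts of 2 higher and 1 lower zinc finger gene with the replicate block, and of 3 lower related genes, were 0 in each other setting, leave-one-out included, both with limma and with voom. ZNF358, ZNF385A and ZNF326 passed in the blocked fit alone. The median over members (-0.43) was -0.91 when milk proteins were dropped from the total, -0.17 with the length correction and -0.10 without the filter. It ran from -0.72 to -0.09 without one library each. The ZBTB median (-1.29) was -2.18 with a pseudocount of 0.1 and -2.14 with voom on recovered reads. It was -0.80 with the length correction and -0.71 without the filter, and ran from -1.69 to -0.66 without one library each. The KLF median (-0.70) was -0.98 with the length correction and -0.50 without the filter, and ran from -1.14 to -0.47 without one library each. The ZNF median (0.08) was 0.31 among genes of 5 RPKM or more, -0.44 when milk proteins were dropped, -0.05 without the filter and -0.36 to 0.0777 without one library each. A setting chosen after seeing the data, without both libraries of sheep 3, gave -0.10 for ZNF and -0.10 for KLF. The cause was not tested.

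Of 32 named members, 28 had 1 sign in every setting run. KLF1 turned with the length correction, with or without the block (0.0809), with quantile normalization (0.0444) and without sheep 3 (0.32), and ran from -0.46 to 0.37 without one library each. KLF13 (0.59) and ZFP36L1 (0.72) turned without sheep 3, and ran from -1.22 to 0.71 and from -0.81 to 0.20 without one library each. ZNF41 turned when milk proteins were dropped (-0.16) and ran from -0.0233 to 0.40. At 2000 nt, 1 read was worth 0.101 RPKM in linseed sheep 1 and 0.0221 in control sheep 1, which limits values under about 1 RPKM.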

Other observations

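Of the tested members, 7 had more than 1 transcript with a mean of at least 1 RPKM, and in 5 of these the transcripts had log2 differences of 1 sign. In ZNF143, a factor of promoters and chromatin loops, 3 transcripts had -1.24, -1.06 and -1.18. In ZNF24, with transcripts of 6443 and 6528 nt, the one used above had -1.55 ± 0.71 (SE) and the other 0.03 ± 0.56. The first had 9.29, 3.28 and 22.0 RPKM in control sheep 1 to 3, and the second 2.36, 3.24 and 2.82, so that they differed in sheep 1 and 3 but not in sheep 2. In ZNF75D, the transcript of higher mean had -0.85 ± 0.68 and the other 0.59 ± 0.66, the latter with 6.79 RPKM in linseed sheep 2 and 0.51 to 1.18 RPKM in the other libraries. How the authors divided reads between transcripts of a gene was not stated.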
